A study of Homo sapiens with 6 samples.

Results

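The levels of 10 enzymes of serine synthesis and folate one-carbon metabolism, out of 58735 genes in the deposited table, were examined in cells labelled MG63, an established human osteosarcoma line. They were taken by gene name and fall into 3 groups: the serine synthesis enzymes PHGDH, PSAT1 and PSPH, the cytosolic folate enzymes SHMT1, MTHFD1 and ALDH1L1, and the mitochondrial folate enzymes SHMT2, MTHFD2, MTHFD1L and ALDH1L2. The set was chosen from results of this same comparison, in which ALDH1L2 was already known to be among the most increased genes, so the fold changes of its members are given as a description with no p-value. RNA sequencing compared 3 samples of cells transfected with siRNA against FUBP1 (siFUBP1) with 3 samples transfected with a negative control (siMock). All 6 samples carried this label, were harvested at the same time after transfection, and had no drug named for them. An siRNA is a short RNA duplex that directs the cleavage of a matching mRNA. The sources used here do not say which FUBP1 siRNA was sequenced or whether the samples of a group came from separate cultures. The p-values therefore set the group difference against a spread between these samples that may be technical.

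Cells make serine from the glycolytic intermediate 3-phosphoglycerate in consecutive steps run by PHGDH, PSAT1 and PSPH. Serine hydroxymethyltransferase then converts serine to glycine and hands its carbon to tetrahydrofolate, and the folate-bound carbon is oxidized to formyl-tetrahydrofolate, which feeds purine synthesis or is released as formate. Mitochondria and cytosol each hold their own set of these enzymes, and in proliferating cells the mitochondrial set usually runs in the oxidative direction and exports formate to the cytosol. Several of these genes are known targets of ATF4, the transcription factor that amino acid shortage and other stresses induce.

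Total counts per sample lay between 16309900 and 17484313. FUBP1 itself, which checks the labels, fell from 256 ± 18.5 CPM in siMock to 46.9 ± 5.33 CPM in siFUBP1, which is 18.4% of the control level (log2 difference -2.44, edgeR adjusted p = 1.9e-17). CPM is the count scaled to the library size with edgeR's TMM factor. Values with ± are means and SD over n = 3 samples, and a log2 difference is that of siFUBP1 from siMock. A gene is called here when edgeR's quasi-likelihood test gives an adjusted p below 0.05 and its absolute log2 fold change is above 1. Of 7 osteoblast lineage markers, COL1A2 and IBSP had a count of 0 in every sample, which allows up to 0.184 CPM in the shallowest library before the TMM factor. ALPL had at most 1 read per sample, SPARC at most 5 and BGLAP at most 13, so these 5 of the 7 defining markers of the labelled lineage were at or near 0. These values go against the label, and the identity of the line was not tested. COL1A1 fell from 113 ± 4.68 CPM to 45.5 ± 0.15 CPM, and RUNX2 rose from 6 to 8 reads per sample to 39 to 97. The summed level of the 7 osteoblast markers was 109 to 118 CPM in siMock and 48.5 to 52.0 CPM in siFUBP1, most of it COL1A1 in both groups. Of 7 markers of other cell types, CD3E and ALB were at 0 in every sample, 3 were tested and 0 were called. The tested EPCAM had 59 to 70 reads in controls and 72 to 83 after knockdown. CDH5 had 42 to 64 reads in controls and 29 to 46 after knockdown, and CDH1 had 10 to 22 and 8 to 20. Every sample thus held more reads of EPCAM and of CDH5 than of any of the 5 osteoblast markers at or near 0. The summed level of the 7 markers of other cell types was 7.68 to 9.36 CPM in siMock and 6.69 to 8.31 CPM in siFUBP1. Their part in the results below was not tested. In RNA from a whole culture, fewer cells that express a gene and less of its RNA per cell cannot be told apart.

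After FUBP1 knockdown all 3 serine synthesis enzymes and 2 of the 4 mitochondrial folate enzymes, MTHFD2 and ALDH1L2, were called higher. The other mitochondrial enzymes, SHMT2 and MTHFD1L, had log2 differences of 0.57 and 0.93 and were not called. No cytosolic folate enzyme was called, with log2 differences of -0.31 for SHMT1 and -0.41 for MTHFD1, and ALDH1L1 had too few reads to be tested. Of the 9 enzymes with enough counts to be tested, 5 were called higher and 0 lower. Over all 16116 tested genes, 8.16% were called higher and 9.13% lower. With the adjusted p alone and no threshold on the fold change, 7 of the 9 were higher and 2 lower, where 30.1% of all tested genes were higher and 30.1% lower. No sample of one group lay within the other for any of the 9, which was also the case for 63.9% of all tested genes. Nothing is read from these counts, since the same values chose the set. The median log2 fold change of the 9, which comes from the same choice of genes, was 1.54, beside 0.0020 over all tested genes. Within siFUBP1, replicate 2 was the highest sample for 8 of the 9 enzymes and for 33.4% of all tested genes, and without it 5 of the 9 were still called. Within siMock, replicate 1 was the highest for 7 of the 9 and for 35.1% of all tested genes, and without it 5 were called as well.

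**Figure D1:**
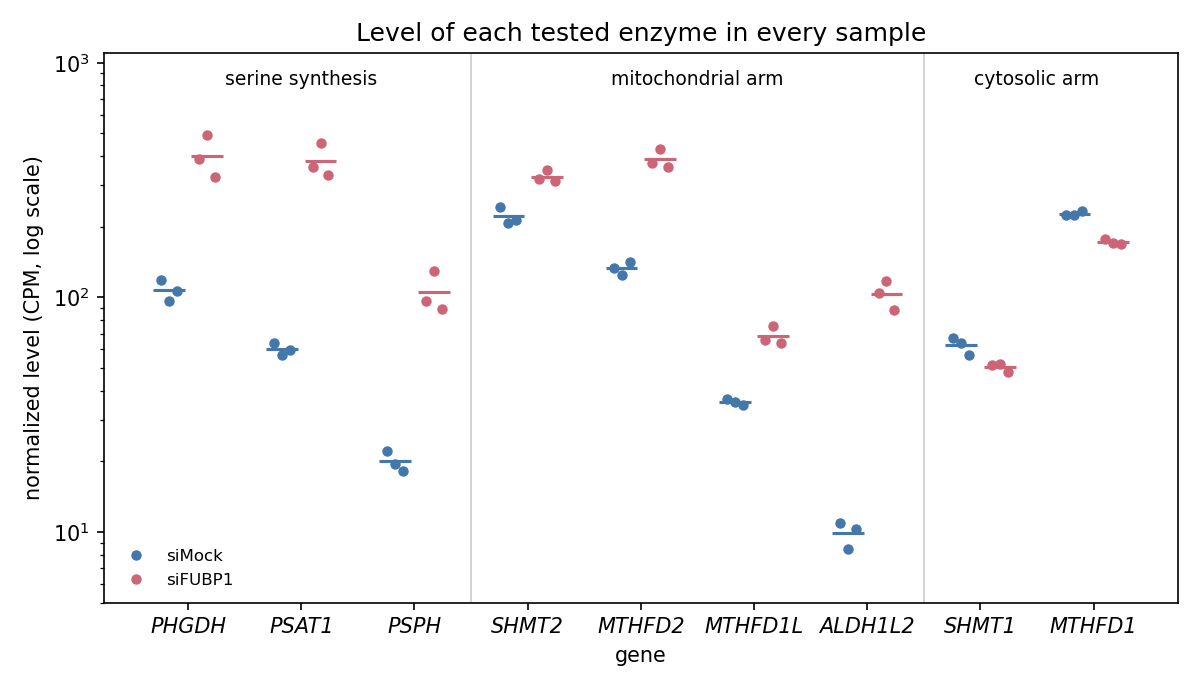
Normalized level (CPM, log axis) of the 9 tested enzymes, with a point for each of the 3 siMock (blue) and 3 siFUBP1 (red) samples and a line at the group mean. The siFUBP1 points lie above the siMock points for the serine synthesis enzymes and the mitochondrial arm, and below them for SHMT1 and MTHFD1.

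PHGDH, which oxidizes 3-phosphoglycerate and commits carbon to serine, lies on the plus strand at chr1:119648411-119744226 of GRCh38 (ENSG00000092621). Its level was 119, 96.1 and 107 CPM in the siMock samples and 388, 492 and 327 CPM in the siFUBP1 samples. The lowest siFUBP1 sample thus stood well above the highest siMock sample, and the knockdown samples were the more spread. Its log2 fold change was 1.91 (standard error 0.14), or 3.75-fold.

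PSAT1, the aminotransferase that takes its nitrogen from glutamate, lies at chr9:78297143-78330093 (ENSG00000135069, plus strand). It had 64.2, 57.0 and 59.4 CPM in siMock and 361, 454 and 333 CPM in siFUBP1. Again the groups lay far apart, with a log2 difference of 2.67 (standard error 0.10), or 6.36-fold. Per kilobase, from an siMock level close to that of MTHFD2, it became the most abundant of the 10 enzymes. That scale divides by all annotated exonic bases of a gene, 2188 for PSAT1 and 9217 for PHGDH. In CPM, the siFUBP1 means of PHGDH (402), MTHFD2 (388) and PSAT1 (383) were alike.

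PSPH, the phosphatase that releases free serine, lies on the minus strand at chr7:56011051-56051604 (ENSG00000146733). Its level was 22.2, 19.5 and 18.2 CPM in siMock and 96.5, 130 and 89.3 CPM in siFUBP1, a log2 difference of 2.40 (standard error 0.13), or 5.27-fold. The mRNA of all 3 enzymes of the pathway was higher in every siFUBP1 sample than in any siMock sample. The groups also did not overlap for 63.9% of all tested genes, and the same values chose these 3. Enzyme protein and serine production were not measured here. PSPHP1, a pseudogene copy of PSPH that could share reads with it, counted 200 to 223 reads per control and 243 to 254 per knockdown sample, a log2 difference of 0.18 (edgeR adjusted p = 0.214). Of the 14 annotated copies of the enzymes examined, 10 had no count in any sample, and none other than PSPHP1 had more than 11.

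SHMT2, the mitochondrial serine hydroxymethyltransferase, lies at chr12:57229327-57234935 (ENSG00000182199, plus strand). It had 242, 208 and 214 CPM in siMock and 320, 348 and 315 CPM in siFUBP1. Its siMock level was the highest of the 10 enzymes per kilobase, and its log2 fold change was the smallest of the mitochondrial arm, at 0.57 (standard error 0.080). That is 1.48-fold, short of the threshold of the call.

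MTHFD2, the mitochondrial dehydrogenase and cyclohydrolase that turns methylene- into formyl-tetrahydrofolate, lies at chr2:74198562-74217565 (ENSG00000065911, plus strand). Its level was 134, 124 and 141 CPM in siMock and 375, 430 and 358 CPM in siFUBP1. It was higher by a log2 difference of 1.54 (standard error 0.084), or 2.91-fold, and was called. It shares 1324 of its 4870 exonic bases with SLC4A5 on the opposite strand, where at most 8 reads per sample were counted. The library kit does not mark the strand, so reads in such shared bases cannot be assigned to a strand.

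MTHFD1L, the mitochondrial synthetase that can release formate from formyl-tetrahydrofolate, lies at chr6:150865549-151101887 (ENSG00000120254, plus strand). It had 36.7, 35.8 and 34.8 CPM in siMock and 65.7, 75.8 and 63.8 CPM in siFUBP1. The siMock samples were close together and the siFUBP1 samples all lay above them. Its log2 fold change of 0.93 (standard error 0.089), or 1.91-fold, was just short of the threshold of 1.

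ALDH1L2, the mitochondrial formyl-tetrahydrofolate dehydrogenase, which oxidizes the carbon to CO2 and yields NADPH, showed the largest log2 fold change of the 9 tested enzymes in edgeR. It lies on the minus strand at chr12:105019784-105084577 (ENSG00000136010). Its counts went from 179, 144 and 160 in siMock to 1755, 2041 and 1541 in siFUBP1. In CPM these were 10.97, 8.47 and 10.2 against 104, 118 and 88.3, a log2 difference of 3.38 (standard error 0.12), or 10.4-fold. Of all tested genes, 0.155% had a higher log2 fold change. It remained the least abundant of the mitochondrial enzymes per kilobase in siMock, and in siFUBP1 its values overlapped those of MTHFD1L. The size depended on the scale, since limma on log2(FPKM + 1), which understates the change of low genes, gave 2.60, just under the 2.62 of PSAT1 on that scale. ALDH1L2 shares 145 of its 8507 exonic bases with C12orf45 on the opposite strand, counted at 233 to 272 reads per control and 332 to 393 per knockdown sample.

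**Figure D2:**
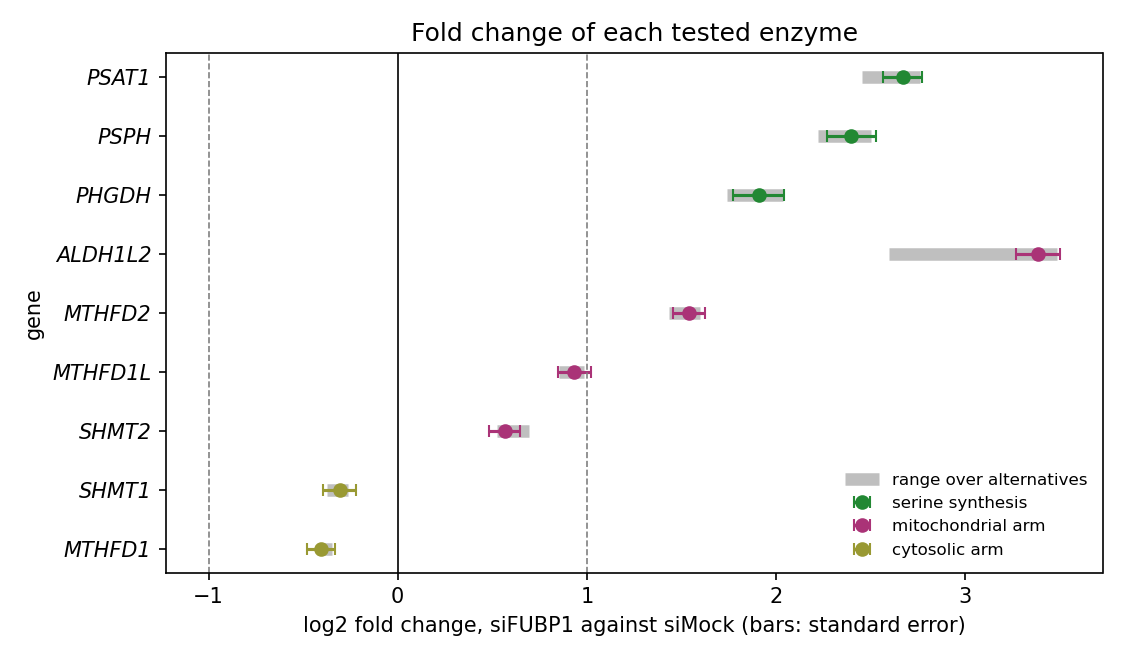
Log2 fold change, siFUBP1 against siMock, of the 9 tested enzymes by edgeR, with the standard error as a bar and the range over the alternative analyses in grey. Dashed lines mark the threshold of 1 in each direction. The serine synthesis enzymes, ALDH1L2 and MTHFD2 lie beyond it, and SHMT1 and MTHFD1 lie below 0 with their whole range.

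The values of SHMT1 and MTHFD1 were lower in siFUBP1. SHMT1, the cytosolic serine hydroxymethyltransferase (ENSG00000176974, chr17:18327860-18363563, minus strand), had 66.9, 63.7 and 56.8 CPM in siMock and 51.5, 51.8 and 48.2 CPM in siFUBP1. The groups did not overlap, but the lowest siMock sample was near the siFUBP1 samples, and the log2 fold change was small at -0.31 (standard error 0.086), or 80.8% of the siMock level. MTHFD1, whose protein carries the dehydrogenase, cyclohydrolase and synthetase activities in the cytosol (ENSG00000100714, chr14:64388031-64463457, plus strand), had 225, 225 and 233 CPM in siMock and 176, 170 and 168 CPM in siFUBP1. These values were tight in both groups, and the log2 fold change was -0.41 (standard error 0.074), or 75.5% of the siMock level. Neither SHMT1 nor MTHFD1 was called. SHMT1 shares 196 exonic bases with SMCR8, and MTHFD1 shares 178 with ZBTB25 and 756 with AL122035.2, all on the opposite strand.

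ALDH1L1, the cytosolic formyl-tetrahydrofolate dehydrogenase (ENSG00000144908, chr3:126103562-126197994, minus strand), was not detectable at this depth in most samples. It had 0, 1 and 0 reads in siMock and 0, 0 and 2 in siFUBP1, so it was not tested, and no ratio of ALDH1L2 to it was formed. A library with 0 reads allows up to 0.178 to 0.184 CPM, which covers counting error only.

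To set the arms side by side, the level per kilobase of each mitochondrial enzyme was divided by that of its cytosolic relative in the same sample. SHMT2 to SHMT1 was 5.44, 4.90 and 5.67 in siMock and 9.34, 10.1 and 9.83 in siFUBP1, so the ratio grew 1.83 times. MTHFD2 to MTHFD1 was 1.15, 1.07 and 1.17 in siMock and 4.09, 4.86 and 4.09 in siFUBP1, a growth of 3.85 times. In siMock both enzymes were thus at a like level per kilobase, while in CPM MTHFD1 was higher, at 227.5 against 133.2 for MTHFD2. The size of such a ratio depends on the annotated exon lengths, and its change between groups does not. MTHFD1L to MTHFD1 was 0.305, 0.298 and 0.279 in siMock and 0.695, 0.830 and 0.708 in siFUBP1, or 2.52 times as much. For all 3 pairs the groups did not overlap, and MTHFD1L stayed below MTHFD1 in every sample. Both a higher numerator and a lower denominator went into each ratio. These ratios come from the same values that chose the set and carry no test.

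**Figure D3:**
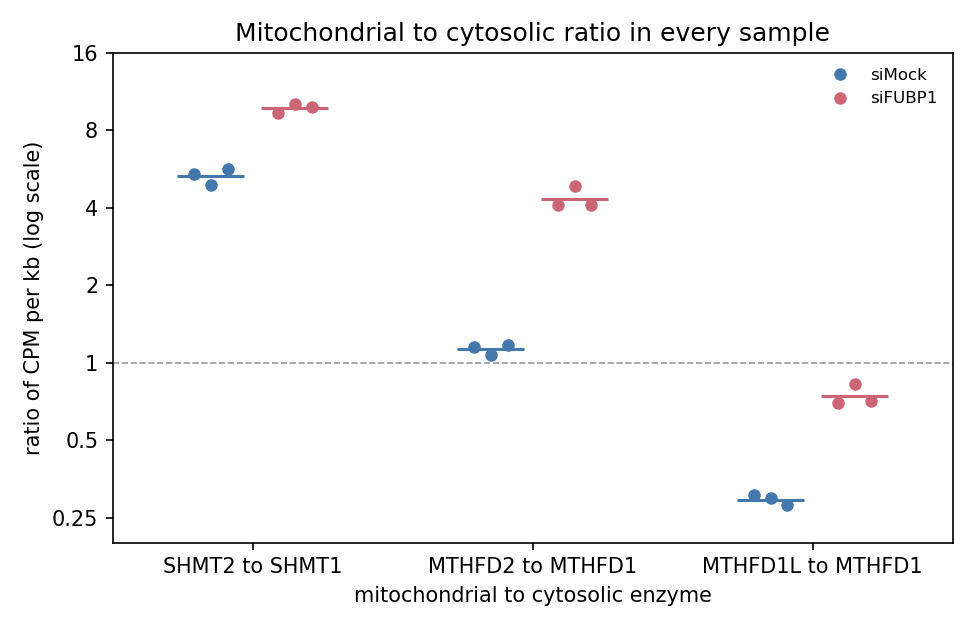
Ratio of the level per kilobase of a mitochondrial enzyme to that of its cytosolic relative (log axis) in each of the 3 siMock (blue) and 3 siFUBP1 (red) samples, with a line at the geometric mean. MTHFD2 to MTHFD1 moved from near 1 to above 4, and each siFUBP1 point lies above the siMock points of its pair.

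The order of the enzymes by level per kilobase also changed. In siMock, SHMT2 stood first at 45.7 ± 3.75 CPM per kilobase, followed by PSAT1 at 27.5 ± 1.67 and MTHFD2 at 27.3 ± 1.74 CPM per kilobase, which overlapped each other. MTHFD1 at 24.3 and PHGDH at 11.6 CPM per kilobase came next, and SHMT1, PSPH and MTHFD1L, between 8.58 and 7.13, overlapped their neighbours. In siFUBP1, PSAT1 stood first at 175 CPM per kilobase, with samples from 152 to 208, above MTHFD2 at 79.6 ± 7.78 and SHMT2 at 67.6 ± 3.68 CPM per kilobase. PHGDH and PSPH, at 43.6 and 38.1 CPM per kilobase, overlapped, and MTHFD1 came after both, where it had stood above both in siMock. This order rests on the annotated exon lengths, as do the sums below. In siFUBP1 CPM, MTHFD1 at 172 stood above PSPH at 105, and PHGDH at 402 stood above both. In siMock CPM, MTHFD1 at 227.5 and SHMT2 at 221 were alike. Summed over its members, the mitochondrial arm went from 81.4 ± 4.74 to 173 ± 14.3 CPM per kilobase and the cytosolic arm from 32.8 ± 0.25 to 25.3 ± 0.66 CPM per kilobase. The sum of the serine synthesis enzymes went from 46.4 ± 3.47 to 257 ± 45.8 CPM per kilobase.

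Promoter sequence from RefSeq (GRCh38.p14, 250 bases before to 50 bases after a gene's start) was searched on both strands for TGATGNAA, the core of the composite element that ATF4 and C/EBP factors bind, and for CACGTG, the E-box that MYC binds. A window was given for 7 of the 10 enzymes, 11 windows in all, and none for PSPH, SHMT2 and ALDH1L2. TGATGNAA was found in 3 overlapping windows of MTHFD1L, all at the same site (chr6:150866357-150866364), and in 3.62% of all 35116 windows. CACGTG was found in the same 3 windows at chr6:150866332-150866337 and in the window of MTHFD1, against 7.26% of all windows. No other window of the enzymes held either run of letters, which says nothing of sites elsewhere. The plan was to show only called enzymes that hold TGATGNAA, and no called enzyme with a window held it. The 30 bases around each match in MTHFD1L (chr6:150866320-150866349 and chr6:150866346-150866375) and MTHFD1 (chr14:64388326-64388355) are shown instead, all read from the plus strand. MTHFD1L and MTHFD1 were picked after their values were seen, and neither was called. Capitals mark the matched letters.
MTHFD1L E-box: cacgcccggctcCACGTGcgcagccggccg
MTHFD1L TGATGCAA: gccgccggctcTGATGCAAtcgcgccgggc
MTHFD1 E-box: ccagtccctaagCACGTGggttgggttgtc

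The transcription factors known to act on these genes were read in the same samples. They were listed by function with earlier results of the series known, so their p-values are not independent of those results. ATF4 rose from 188, 161 and 172 CPM in siMock to 384, 416 and 388 CPM in siFUBP1, a log2 difference of 1.19 (standard error 0.080, edgeR adjusted p = 1.65e-12). ATF4 is controlled largely at translation, which mRNA counts do not show. MYC, the E-box factor, rose from 79.1 ± 5.30 CPM to 200.2 ± 24.9 CPM, a log2 difference of 1.34 (edgeR adjusted p = 1.05e-12). NFE2L2, which encodes the oxidative stress factor NRF2, had a log2 difference of 0.49 (edgeR adjusted p = 6.93e-06) and was not called. It shares 1054 exonic bases with AC019080.1 on the same strand.

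The rest of the pathway was read over 54 further genes in 5 lists written by function, with earlier results of the series known. Of these, 45 were tested, 2 were called higher and 4 lower, and their median log2 fold change was -0.13. The shares over all tested genes were 8.16% higher and 9.13% lower, so these counts are near or below the background. With the adjusted p alone, 10 were higher and 15 lower, beside 30.1% of all tested genes in each direction.

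Among 11 carriers of folate and serine, 9 were tested and 1 was called. SLC1A4, a transporter of serine and other small neutral amino acids, rose from 27.1 ± 1.33 CPM to 56.6 ± 10.4 CPM, a log2 difference of 1.06 (edgeR adjusted p = 1.24e-08). Its siFUBP1 values were 59.0, 65.6 and 45.2 CPM. Without siFUBP1 replicate 2 the log2 difference was 0.95 and with limma on log2(FPKM + 1) it was 0.89, both under the threshold of 1. SFXN1, the mitochondrial serine carrier, had a log2 difference of -0.13 (edgeR adjusted p = 0.145), and SLC19A1, the reduced folate carrier, one of -0.0382 (edgeR adjusted p = 0.75). SLC19A1 shares 1401 of its 9998 exonic bases with COL18A1 on the opposite strand, counted at 1691 to 6000 reads per sample. FOLR1, the folate receptor, was abundant at 2499 ± 104 CPM in siMock and 2142 ± 210 CPM in siFUBP1, a log2 difference of -0.22 (edgeR adjusted p = 0.0331). SLC25A32, the mitochondrial folate carrier, had 2 to 11 reads per sample, and 2547 of its 3654 exonic bases lie in AC012213.5 on the same strand, so its level is uncertain.

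None of the 14 other genes of the folate cycle was called by edgeR, although all 14 were tested. At the adjusted p alone 3 were higher, 4 lower and 7 neither. MTHFD2L, a mitochondrial relative of MTHFD2, went from 10.2 ± 0.55 CPM to 17.8 ± 1.66 CPM, a log2 difference of 0.80 (edgeR adjusted p = 4.04e-06). TYMS, thymidylate synthase, which takes its methyl group from folate, went from 43.9 ± 3.64 CPM to 25.1 ± 1.85 CPM, a log2 difference of -0.81 (edgeR adjusted p = 5.85e-08). It shares 967 of its 2470 exonic bases with ENOSF1 on the opposite strand. Of the purine enzymes that use formyl-tetrahydrofolate, ATIC was at 0.42 (edgeR adjusted p = 4.37e-05) and GART at 0.0925 (edgeR adjusted p = 0.315) on the log2 scale.

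Of 8 genes of glycine cleavage and of one-carbon units from choline, 5 were tested and 1 was called. CHDH, choline dehydrogenase, fell from 30.2 ± 4.04 CPM to 8.84 ± 0.92 CPM, a log2 difference of -1.77 (edgeR adjusted p = 3.38e-12). With limma on log2(FPKM + 1) it was -1.18. CHDH shares 1399 of its 7758 exonic bases with CACNA1D on the opposite strand. GLDC, the glycine decarboxylase, was low, at 33 to 36 reads in controls and 22 to 33 in knockdown samples.

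Among 12 genes of the methionine cycle and transsulfuration, 9 were tested, 1 was called higher and 1 lower. CBS, which joins serine to homocysteine, rose from 50, 28 and 54 reads in siMock to 304, 585 and 338 in siFUBP1, a log2 difference of 3.13 (standard error 0.37, edgeR adjusted p = 0.000334). CBSL, annotated as a near-identical copy, had 5, 75 and 40 reads in siMock and 17, 35 and 31 in siFUBP1, so the split of reads between them is uncertain. The sum of both was 55 to 103 reads in siMock and 321 to 620 in siFUBP1. On log2(FPKM + 1), limma gave CBS a log2 difference of 1.65. AHCYL2, a relative of the enzyme that splits S-adenosylhomocysteine, fell by 1.45 on the log2 scale (edgeR adjusted p = 3.11e-10), and by limma on log2(FPKM + 1) it was at -0.91, short of a call. CTH, the next enzyme of transsulfuration, had a log2 difference of -0.32 (edgeR adjusted p = 9.52e-04) and was not called.

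Of 9 genes of serine use and breakdown, 8 were tested and 2 were called, both lower. SPTLC3, a subunit of the serine palmitoyltransferase that starts sphingolipid synthesis, fell from 8.52 ± 0.56 CPM to 3.13 ± 0.47 CPM, a log2 difference of -1.44 (edgeR adjusted p = 1.32e-07). The call was lost with limma on log2(FPKM + 1), at -0.54. PTDSS2, a phosphatidylserine synthase, fell from 312 ± 29.1 CPM to 145 ± 16.4 CPM, a log2 difference of -1.11 (edgeR adjusted p = 4.67e-11). Its call was lost once GC content and length were corrected for, at -0.99. SPTLC1, another subunit of the palmitoyltransferase, was at 0.62 (edgeR adjusted p = 5.73e-07) and was not called.

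**Figure D4:**
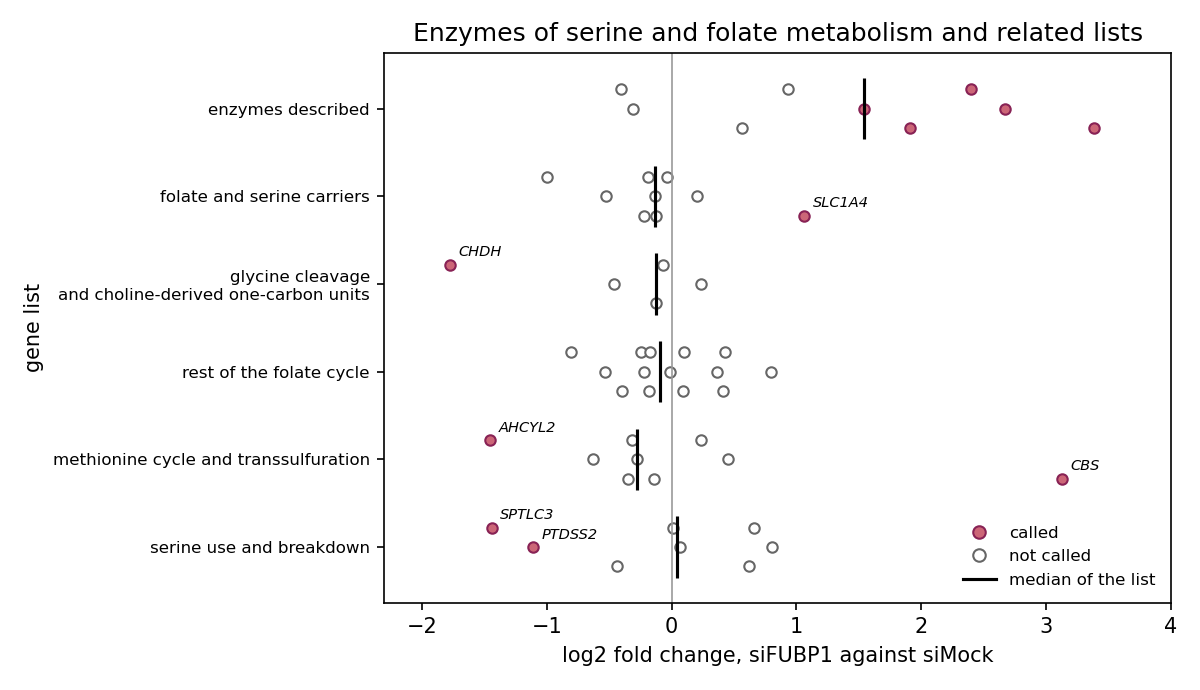
Log2 fold change, siFUBP1 against siMock, of each tested gene of the 9 enzymes described and of the 5 related lists, a point per gene, filled where called, with a line at the median of each list. The medians of the related lists lie between -0.28 and 0.0408, and that of the enzymes described at 1.54. The enzymes described were chosen from results of this comparison, so nothing is read from that difference.

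The genes whose profile over the 6 samples was most like that of ALDH1L2 were sought among 10443 protein-coding candidates averaging 100 counts or more, by the Euclidean distance between centred log2 CPM. The nearest were NUPR1, a stress-induced chromatin protein, at a distance of 0.256, STC2, a secreted glycoprotein, at 0.270, and DDIT3, the stress transcription factor CHOP, at 0.518. Their log2 fold changes were 3.51, 3.38 and 3.09, beside 3.38 for ALDH1L2. They were chosen for this likeness, so these values carry no test.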

How the data were processed

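All 6 samples were grouped by their titles. Per the labels, poly(A) RNA was sequenced with a kit that does not mark the strand. The submitters' processing notes name HISAT2 2.0.5, featureCounts 1.5.0-p3, StringTie 1.3.3b and DESeq2 1.16.1, and the strand setting was not given in the sources used here. The authors deposited unnormalized read counts per gene. The FPKM deposited by the authors were used only in alternatives. The deposited signal columns hold the authors' group means, and the deposited log2 fold changes and p-values hold their own comparison, and none of these was used. All 58735 gene models match GENCODE 29 on GRCh38.

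Counts were tested with edgeR 4.0.16 in R 4.3.3 (TMM, filterByExpr, robust quasi-likelihood F test, Benjamini-Hochberg over 16116 genes). The standard error is the absolute log2 fold change divided by the square root of F. Every pair of samples differed beyond sampling noise (chi-square per gene of at least 5.37). Fits were tested on simulated data. Alternatives were DESeq2's size factors, DESeq2 1.42.0, no filter on low counts, limma 3.58.1 on log2(FPKM + 1) and log2(FPKM + 0.1), no threshold on the fold change, the replicate number as a block, a loess correction (span 0.3) for GC content and transcript length, and leaving out each sample.

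Members and lists were chosen with earlier results of these data known. The text names every member, each called gene of the pathway lists, the 3 transcription factors and the 3 genes most like the member with the largest increase, and other list genes were chosen after their values were seen. The planned comparison of protein sequences was not made.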

Additional observations from a re-analysis of the deposited data

How the results depend on the processing

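The number of enzymes called higher was 5 under every alternative except without a threshold on the fold change, where it was 7, and the number called lower was 0 except under that same alternative, where it was 2. No log2 fold change of the 9 tested enzymes changed sign under any of the 14 alternatives. FUBP1 stayed between -2.60 and -2.31 on the log2 scale. For the 54 further pathway genes, limma on log2(FPKM + 1) called 1 higher and 2 lower, and without a threshold on the fold change edgeR called 10 higher and 15 lower. With each sample left out in turn, 1 (without siFUBP1 replicate 2) to 4 (without siFUBP1 replicate 3) were called higher, against 2 with all samples, and 4 to 5 lower. Over all genes, limma on log2(FPKM + 1) called 462 higher and 588 lower, against 1315 and 1472.

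Samples that share a replicate number deviated together little or not at all (correlations of -0.0047, 0.0171 and 0.123 for numbers 1, 2 and 3). The samples of number 3 correlated best with each other, and those of numbers 1 and 2 did not. With the replicate block, 5 enzymes were called higher and 0 lower, and 2 further pathway genes were called higher and 4 lower. With 3 samples a group, ALDH1L1 and 9 pathway genes had too few reads to be tested.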

Other observations

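Like most of the enzymes described, ATF4, MYC, NFE2L2, CBS and SLC1A4 were highest within siFUBP1 in replicate 2, at 416, 229, 176.7, 33.7 and 65.6 CPM. These genes were picked after their values were seen, and 33.4% of all tested genes were also highest there. Of the other called pathway genes, CHDH was also highest in replicate 2, at 9.86 CPM. AHCYL2, PTDSS2 and SPTLC3 were highest in replicate 3, at 8.19, 155.5 and 3.44 CPM. What set replicate 2 apart was not tested, and without it the log2 fold changes of PHGDH and PSPH were 1.74 and 2.22.

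FOLR1 ranked 14th of 19951 protein-coding genes by mean CPM per kilobase over the 6 samples, in cells where COL1A2 and IBSP had 0 counts. PSAT1 ranked 294th on the same scale and ALDH1L2 6071st.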
